A study of Mus musculus with 4 samples.

Results

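The genes described here carry ketone bodies into cells and turn them into fuel: Oxct1, Bdh1, Acat1, Slc16a1 and Slc16a7. They were taken by name, with their older symbols, from every probe of whole-genome arrays, a rule that uses no measured value. The list of names itself was chosen with earlier results of these data known. The 5 genes were represented by 12 of 41174 probes, among 28104 gene names. Slc16a1, Slc16a7 and Oxct1 had 3 probes each, Bdh1 had 2 and Acat1 had 1, and 1 of the Slc16a7 probes stood under the older symbol 9030411M13Rik.

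RNA came from whole brains of C57BL/6J mouse fetuses. For food deprivation (FD), the dams went without food overnight on gestation day 17. For food restriction (FR), they were given 50% of the control intake of chow from gestation day 10 to 17, with caesarean section on day 18, a day the design text leaves implicit for FD. Control dams ate ad libitum. RNA of 5 fetuses was pooled per group, and treated and control RNA were labelled with different dyes and read together, with treated RNA in Cy5 on array 1 and in Cy3 on array 2 of a comparison. Neither the number of litters behind a pool nor whether FD and FR used the same control pool is given in the sources used here. The study asked which fetal brain transcripts differ after maternal undernutrition.

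Ketone bodies are made by the liver from fatty acids when food is short, and they cross the placenta and the blood-brain barrier. The developing brain is known to burn them for energy and to build lipids from them. Transport in and out of cells depends on monocarboxylate transporters, which also carry lactate and pyruvate. Inside the mitochondrion, 3-hydroxybutyrate is oxidised to acetoacetate, acetoacetate receives coenzyme A, and the product is cleaved to acetyl-CoA.

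Each condition was 1 pool (n = 1), so no difference was tested, and the spread between the arrays of a dye swap is technical error only. Each value below is log2 of treated over control on arrays 1 and 2, and a gene was called when it was at least 1.5-fold different in the same direction on both. In a bulk sample, fewer cells of a type and less RNA per cell cannot be told apart. The technical SD, over all measured genes, was 0.127 for FD and 0.131 for FR on the log2 scale. It is the SD of the difference between a gene's ratios on arrays 1 and 2, divided by 2. It also holds gene-specific dye bias, which the mean of a dye swap cancels, so it may overstate the error of that mean. Measured probes are those without an outlier flag on either array whose signal stood well above background in all 4 channels of a comparison, which held for 17945 genes in FD and 18541 in FR. Of the 5 ketone genes, 4 were measured in each comparison. The exception was Acat1, whose spot carried an outlier flag. Neuronal markers were present in every pool, with 6 of 7 measured and a summed log2 signal of 15.75 to 15.90.

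After food restriction, Oxct1 and Slc16a7 were lower in the FR pool by more than the size rule, and after overnight deprivation the same probes of both genes were lower by a smaller amount. Oxct1 was 1.58-fold lower in FR and 1.22-fold lower in FD. Slc16a7 was 1.85-fold lower in FR and 1.28-fold lower in FD. The FR count was 2 of 4 measured ketone genes lower and 0 higher, where 0.431% of all measured genes were called lower and 0.582% higher. That count was 0 with the bright patch of FR array 2 left in the background fit or with median centring in place of loess, and 1 (Slc16a7) with the median over a gene's probes. In FD, 0 of 4 were called in either direction, where 0.128% of all genes were called lower and 0.0892% higher.

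Oxct1 encodes succinyl-CoA:3-oxoacid CoA transferase, the mitochondrial enzyme that attaches coenzyme A to acetoacetate and so commits ketone bodies to use as fuel. Its probes lie on chromosome 15 of build mm9, on the plus strand. Probe A_51_P107326 covers chr15:4103898-4103957. The 60 bases of each of the others are spread over a longer stretch of genome, so they match spliced RNA and span exons. Probe A_52_P430058 maps to chr15:4051159-4051822, a span of 664 bases, and probe A_51_P107321 to chr15:4051863-4078876, a span of 27014 bases. The sequences of these exon-spanning probes are shown because they sample another stretch of the transcript than the probe that stands for the gene, and they are written in lower case throughout since no shorter stretch was measured alone:
A_52_P430058: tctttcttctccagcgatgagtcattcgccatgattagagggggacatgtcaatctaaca
A_51_P107321: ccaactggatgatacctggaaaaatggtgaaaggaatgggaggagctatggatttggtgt

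The brightest Oxct1 probe, A_51_P107326, had log2 ratios of -0.34 and -0.24 in FD and -0.68 and -0.65 in FR. Both arrays of each comparison lay below 0, and the FR values lay below the FD values on arrays of either dye orientation. Its mean was -0.29 in FD, where 389 genes (2.17%) had a lower mean, and -0.66 in FR, where 84 genes (0.453%) had a lower one. Among genes of like brightness (1795 genes in FD and 1854 in FR), the technical SD was 0.161 in FD and 0.165 in FR. The exon-spanning probe A_52_P430058 gave -0.39 and -0.01 in FD and -0.73 and -0.33 in FR. It was lower on both FR arrays but passed 1.5-fold on array 1 alone, and its FD value came almost wholly from array 1. The other, A_51_P107321, gave -0.46 in FD and -0.87 in FR on array 1. On array 2 its spot carried an outlier flag, with log2 ratios of -0.24 and -0.51 when kept. All 3 Oxct1 probes thus had ratios below 0 on every array, flagged spots included, while their sizes differed between arrays. With the median over its measured probes in place of the brightest, Oxct1 stood at -0.60 in FR and was not called.

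Bdh1 encodes 3-hydroxybutyrate dehydrogenase of the inner mitochondrial membrane, which interconverts 3-hydroxybutyrate and acetoacetate. Its probes lie on the plus strand of chromosome 16 and did not give the same direction. Probe A_52_P468343 (chr16:31458195-31458254) had log2 ratios of -0.15 and -0.16 in FD and -0.31 and -0.28 in FR. That is 1.11-fold lower in FD and 1.23-fold lower in FR, with means of -0.16 and -0.29 against technical SDs of 0.148 and 0.160 among genes of like brightness. Probe A_51_P163106 (chr16:31457378-31457437) carried an outlier flag on all 4 arrays and was left out. With its flagged spots kept, it gave -0.05 and 0.27 in FD and 0.18 and 0.29 in FR. As the brighter of the pair it would then stand for Bdh1, with means of 0.11 in FD and 0.24 in FR, so Bdh1 has no settled direction in these arrays.

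Acat1, the mitochondrial acetoacetyl-CoA thiolase that cleaves acetoacetyl-CoA to acetyl-CoA, had 1 probe, A_51_P319449, on the minus strand of chromosome 9 (chr9:53389868-53389927). Its only spot without a flag, on array 2 of FD, had a log2 ratio of 0.35. The flagged spots gave 0.02 on array 1 of FD, and 0.26 and 0.29 in FR. None of the 4 values was below 0, and the gene was not counted in either comparison. Over the 12 probes and 4 arrays, 9 of 48 spots carried such a flag. All of these were flags for uneven pixels in the green channel, and no spot of the 5 genes was saturated.

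Slc16a7 encodes MCT2, the high-affinity monocarboxylate transporter known mainly from neurons. Its probes lie on the minus strand of chromosome 10. Probe A_51_P466633 (chr10:124664784-124664843) had log2 ratios of -0.39 and -0.32 in FD and -0.87 and -0.91 in FR. Every array was below 0, and the FR arrays were at least 1.5-fold lower in either dye orientation. In FR the mean of -0.89 was exceeded in the same direction by 19 genes (0.102%), and in FD the mean of -0.36 by 188 genes (1.05%). The technical SD among genes of like brightness was 0.129 in FD and 0.120 in FR. Before any correction, its spot had a mean intensity of 272.5 in the FR channel and 187.6 in the control channel on FR array 1, and of 94.6 and 565.8 on array 2. The local background in these channels was 57 and 51 on array 1, and 51 and 46 on array 2. The uncorrected channels thus stood in opposite order on these arrays, Cy5 above Cy3 on both, and the ratios rest on the normalisation between dyes. The same held for Oxct1 probe A_51_P107326. Its uncorrected intensity was 39640 in the FR channel and 14080 in the control channel on FR array 1, and 7254 and 65070 on array 2.

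The other Slc16a7 probes were too dim to count. A_52_P408736 (chr10:124663576-124663635) gave -0.12 and 0.13 in FD and -0.16 and 0.03 in FR. A_52_P1146762 (chr10:124659387-124659446), listed under the older symbol, gave 0.03 and 0.09 in FD and -0.14 and 0.10 in FR. Each was well above background in 1 of 4 channels of each comparison. The value of Slc16a7 therefore rests on 1 probe, and the dim probes show no common direction.

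Slc16a1 encodes MCT1, the monocarboxylate transporter known from brain endothelium and glia, and it did not share the direction of Slc16a7. All 3 of its probes lie on the plus strand of chromosome 3. Probe A_51_P397367 (chr3:104460941-104461000) had log2 ratios of 0.16 and 0.24 in FD and 0.09 and 0.09 in FR. In FD this is 1.15-fold higher, with a mean of 0.20 beside a technical SD of 0.143 among genes of like brightness. Probe A_51_P397363 (chr3:104460835-104460895) gave 0.13 and 0.16 in FD and -0.09 and 0.10 in FR, and probe A_52_P245119 (chr3:104457083-104457142) gave -0.02 and 0.02 in FD and -0.02 and -0.08 in FR. The brighter pair of probes was above 0 in FD, and no probe of Slc16a1 departed from 0 by as much as 0.10 on both FR arrays. The array files give no exon or untranslated region for any of these positions.

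**Figure D1:**
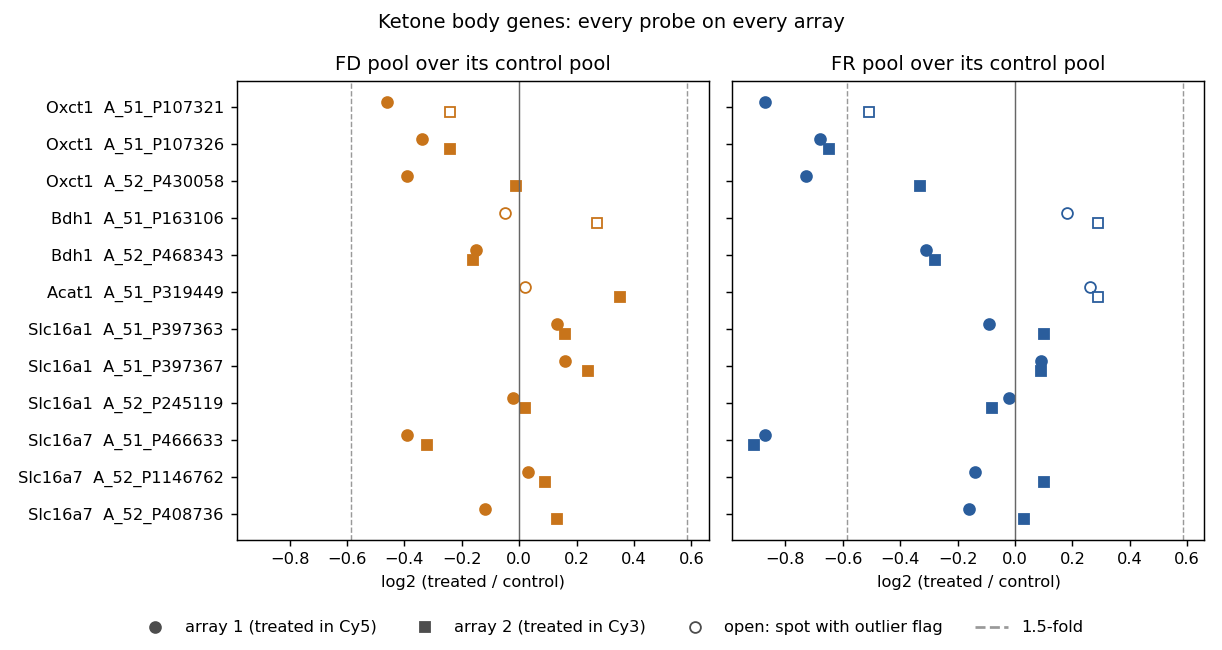
Log2 ratio of treated over control (horizontal axis) for all 12 probes of the 5 ketone genes (vertical axis), in FD (left) and FR (right); circles are array 1, squares array 2, open symbols spots with an outlier flag, and dashed lines 1.5-fold. In FR both arrays of Oxct1 probe A_51_P107326 (-0.68, -0.65) and of Slc16a7 probe A_51_P466633 (-0.87, -0.91) lie beyond the lower line, and in FD no point of any probe reaches either line.

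**Figure D2:**
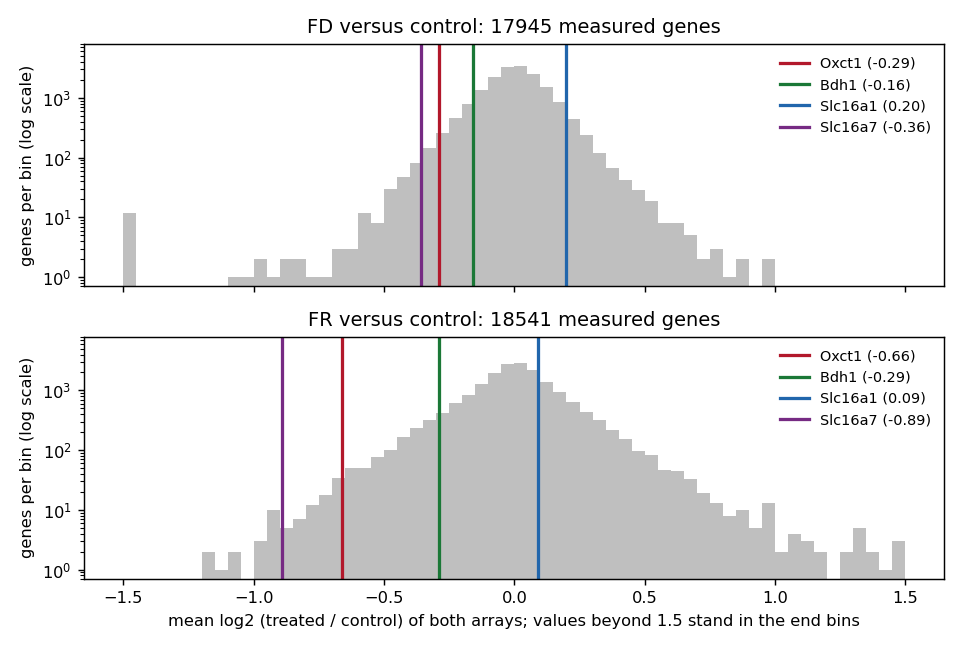
Number of measured genes (vertical axis, log scale) by mean log2 ratio of treated over control of both arrays (horizontal axis), with coloured lines at the 4 measured ketone genes, for FD (top) and FR (bottom). In FR, Slc16a7 (-0.89) and Oxct1 (-0.66) lie in the lower tail while Bdh1 (-0.29) and Slc16a1 (0.09) lie inside the central 95% of genes, which runs from -0.42 to 0.43.

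The channel levels give the reading of each pool behind the ratios. These are log2 signals of 1 probe after normalisation, so they are set side by side only within a probe. Pools read on different arrays are comparable only through the scaling between arrays, so the levels cannot assign a difference to a pool. For Oxct1 (A_51_P107326) the FR pool read 14.23 and 14.25 on arrays 1 and 2, and its control pool 14.91 and 14.90. The FD pool read 14.77 and 14.75, and its control pool 15.11 and 14.99. The order of the means was thus FR (14.24), FD (14.76), control of FR (14.91) and control of FD (15.05). These pools did not overlap over their arrays, which are technical repeats only. The share of all genes with pools so separated or ordered was not computed, for this probe or those below. The control pools differed by 0.14, a size within the spread of that difference over all genes (SD 0.163).

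For Slc16a7 (A_51_P466633) the FR pool read 7.45 and 7.51 and its control pool 8.33 and 8.41. The FD pool read 7.88 and 8.00 and its control pool 8.27 and 8.32. Both treated pools lay below both control pools, FR lowest, and the control pools differed by -0.07 (FD control minus FR control). For Bdh1 (A_52_P468343) the readings were 9.73 and 9.57 in FD, 9.88 and 9.74 in its control, 9.67 and 9.62 in FR, and 9.97 and 9.90 in its control. The FD pool overlapped the FR pool, and both lay below the control pools, the FD pool by little. For Slc16a1 (A_51_P397367) the FD pool was highest, at 10.72 and 10.81, against 10.55 and 10.57 in its control, 10.45 and 10.46 in FR and 10.36 and 10.36 in the control of FR. Here the control pools differed by 0.20, as much as FD differed from its own control.

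**Figure D3:**
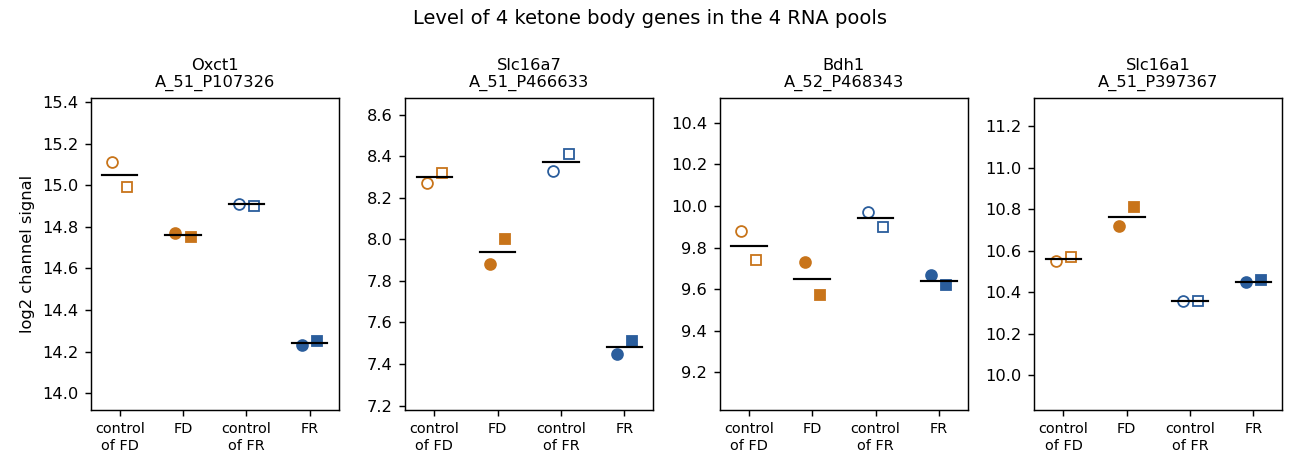
Log2 channel signal (vertical axis, a separate range for each gene) of the probe that stands for each of 4 ketone genes in the 4 RNA pools (horizontal axis); circles are array 1, squares array 2, open symbols control pools, and bars the mean of both arrays. The FR pool is lowest for Oxct1 (14.24) and Slc16a7 (7.48), the FD pool lies between it and the control pools, and for Slc16a1 the FD pool is highest (10.76).

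FD was set against FR by subtracting the FR ratio from the FD ratio of the array labelled the same way round, which shows whether the deprivation and restriction ratios differ. The difference FD minus FR was 0.34 and 0.41 for Oxct1 and 0.48 and 0.59 for Slc16a7. Its mean was 0.38 and 0.53, beside a technical SD of 0.102 over all genes, so both ratios were less negative in FD in either dye orientation. With the bright patch of FR array 2 left in the background fit, the means were 0.22 for Oxct1 and 0.11 for Slc16a7, the latter about as large as that technical SD. With the patch spots left out, the Slc16a7 mean of 0.53 is 1.45-fold, with array 2 just past the 1.5-fold line and array 1 short of it. Bdh1 differed by 0.16 and 0.12. By the size rule 0 of 4 ketone genes were called, where 0.0717% of 16741 genes were called higher and 0.269% lower.

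Of 38 other genes of ketone and monocarboxylate metabolism, 36 had a probe. In FD 26 were measured, with 0 higher and 0 lower by the size rule, and in FR 25 were measured, again with 0 in each direction. Below 0 on both arrays were 8 in FD and 11 in FR, and above 0 on both were 7 and 5. Over all measured genes, 23.3% in FD and 27.4% in FR were below 0 on both arrays, and 25.5% and 28.3% above. The list median was 0.00 in FD and -0.12 in FR, where that of all genes was 0.00 and 0.01. Of the listed genes with a probe, 7 in FD and 6 in FR were not well above background throughout, among them the lactate and ketone receptors Hcar1 and Hcar2 and the fasting hormone Fgf21. An outlier flag removed 3 in FD and 5 in FR, including the lactate dehydrogenase subunits Ldha and Ldhb.

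Genes of ketone body synthesis had a median of 0.05 in FD over 8 measured and -0.24 in FR over 7. In FR 5 of the 7 were below 0 on both arrays and 0 above. Acaa2, a thiolase of fatty acid oxidation, gave -0.29 and -0.27 in FR, and Hmgcll1, a relative of the ketogenic lyase, gave -0.16 and -0.39. In FD the lowest values were those of Acat3, a relative of the cytosolic thiolase Acat2, at -0.44 and -0.15, and of Hmgcs1, the cytosolic synthase of the sterol pathway, at -0.37 and -0.14. Among genes of ketone use outside the 5, Aacs, which activates acetoacetate in the cytosol for lipid synthesis, gave -0.45 and -0.15 in FD. Its FR spots were partly flagged, at -0.45 and -0.32 when kept. Oxct2a, the testis form of the transferase, was measured in FR alone, with a mean of -0.10.

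Among 8 measured transporters and their partners, the median was -0.07 in FD and -0.14 in FR. Slc16a3 (MCT4), known for lactate export from glycolytic cells, gave -0.51 and -0.59 in FR, a mean 1.46-fold lower that reached the 1.5-fold line on array 2 alone. Slc16a11 (MCT11) gave -0.55 and -0.42 in FR, 1.40-fold lower. In FD the transporters furthest from 0 were Slc16a13 (-0.17) and Slc16a4 (-0.16). Of the other monocarboxylate carriers and partners, the chaperone Emb had a mean of 0.18 in FR and Bsg, the chaperone of MCT1 and MCT4, -0.12. Over the measured Slc16a genes, then, the mean FR ratios ran from -0.89 for Slc16a7 to 0.16 for Slc16a6.

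Regulators of fat burning showed no common direction. Cpt1a, the carnitine acyltransferase that admits fatty acids to the mitochondrion, gave 0.44 and 0.08 in FD, and its brain relative Cpt1c gave -0.38 and -0.24 in FR. The coactivator Ppargc1a gave -0.33 and -0.17 in FD, and 0.03 and -0.42 in FR, where the arrays disagreed in sign. Among genes of lactate and pyruvate handling, the median was 0.10 in both comparisons. Pdk4, the kinase that slows pyruvate entry into the citric acid cycle, was above 0 on all 4 arrays, at 0.16 and 0.20 in FD and 0.22 and 0.36 in FR. The dehydrogenase subunit Pdha1 had a mean of 0.13 in FD and citrate synthase (Cs) 0.13 in FR.

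**Figure D4:**
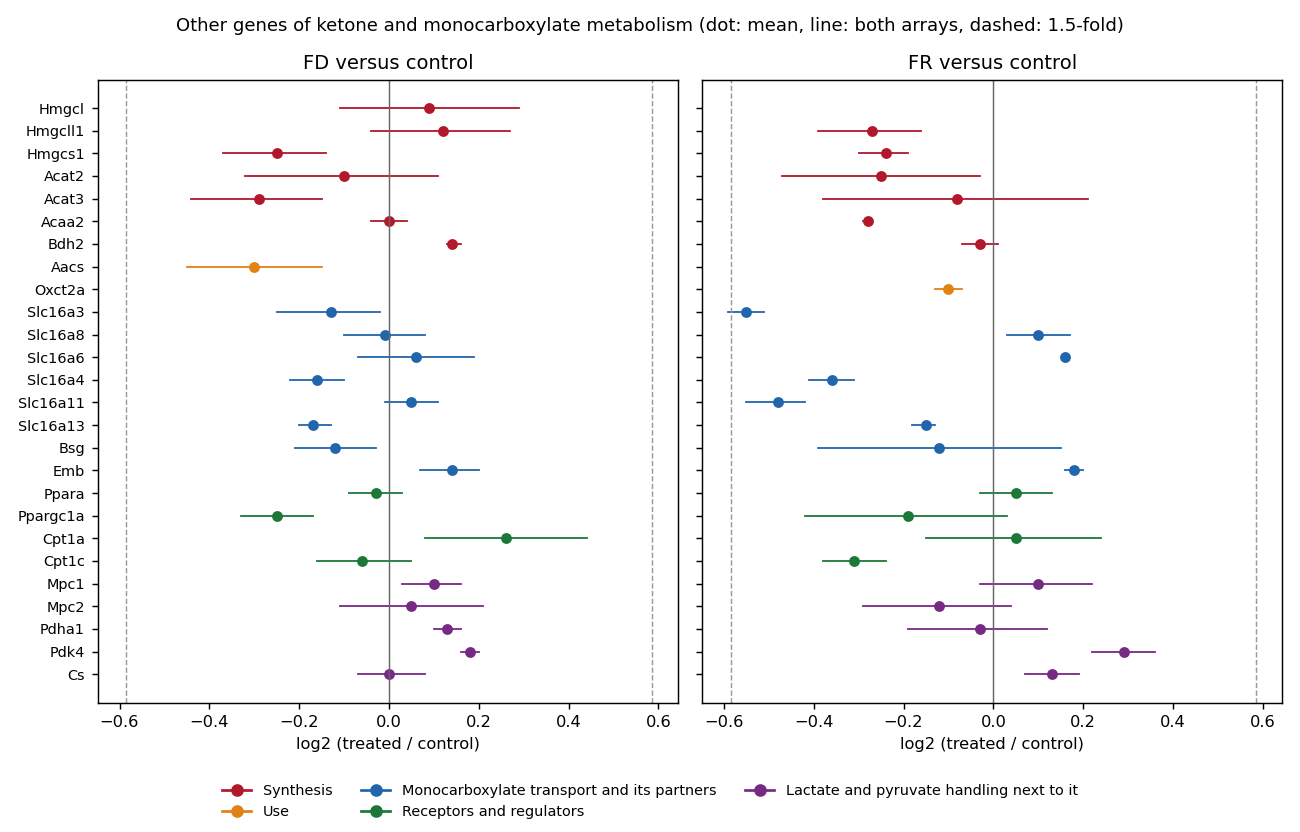
Mean log2 ratio of treated over control (dot, horizontal axis) and both arrays (line ends) for measured genes of the wider pathway list (vertical axis), coloured by role, in FD (left) and FR (right), with dashed lines at 1.5-fold. No plotted gene lies beyond a dashed line on both arrays; the lowest are Slc16a3 (-0.55) and Slc16a11 (-0.48) in FR.

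Cell type markers were read beside these values. Neuronal markers had a median of -0.02 in FD and -0.05 in FR, with 0 of 6 called in each, and summed neuronal signals ran from 15.77 to 15.83 in FD against 15.81 to 15.90 in its control, and from 15.75 to 15.88 in FR against 15.83 to 15.89 in its control. Endothelial markers, 9 measured, had medians of -0.03 and -0.07 with 0 called. Astrocyte and radial glia markers had a median of -0.28 in FR, with 5 of 8 below 0 on both arrays, 2 above 0 on both and 0 called, and 0.08 in FD. The summed signal of the 7 of these measured on all 4 arrays was 12.26 to 12.30 in the FR pool and 12.36 to 12.43 in its control. Oligodendrocyte lineage markers had a median of -0.36 in FR, with 1 of 7 called lower, and 0.07 in FD. The summed signal of the 6 of these measured on all 4 arrays, without the called gene Olig1, was 12.10 to 12.14 in the FR pool. It was 12.41 to 12.52 in its control. The summed glial signals were thus lower in the FR pool, by more for the oligodendrocyte list than for the astrocyte list, and their part in the values of Oxct1 and Slc16a7 was not tested. Choroid plexus markers had medians of 0.06 and 0.07 (4 measured) and microglial markers 0.01 and -0.04 (6 measured), with 0 called.

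Markers of tissue outside the brain also differed. Skeletal muscle markers were called lower for 7 of 7 measured genes in FD and for 0 of 8 in FR. Their summed signal was 10.92 to 10.94 in the FD pool and 13.02 to 13.06 in its control. It was 11.27 to 11.28 in the FR pool and 11.27 to 11.32 in the control of FR. By these levels the control pool of FD was highest, and the other pools lay nearer to each other than to it. Levels on different arrays are comparable only through the scaling between arrays. Muscle expresses ketone use enzymes, and the part of this muscle signal in the FD values of Oxct1 was not tested. Liver markers had medians of 0.50 in FD and 0.17 in FR, with 1 of 7 called higher in each. Of the erythroid list, 1 gene was measured, at -0.41 in FD and -0.11 in FR.

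For each gene called in FR, genes with the most similar ratios over the 4 arrays were listed by the root mean square difference on the log2 scale. For Oxct1 these were D130043K22Rik (0.0344), 2210408F21Rik (0.0477), Stk16 (0.0564), 2810032G03Rik (0.0583) and Fancg (0.0591). For Slc16a7 they were Ndufb2 (0.0518), Bcs1l (0.0659), Dgkk (0.0815) and Tmem107 (0.0942). None of the other ketone genes was on either list, which restates their ratios given above. Acat1 could not appear, because only genes measured on all 4 arrays were compared.

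The FR calls depended on the background correction of array 2 of FR, which carried a bright patch, and on the normalisation between dyes on the FR arrays. With the patch left in the background fit, Oxct1 had a mean of -0.51 and Slc16a7 of -0.47, and neither was called. Only 13 genes of the whole array (0.0701%) were called in FR under that setting. With median centring in place of the intensity-dependent loess, the means were -0.75 and -0.93 and neither passed on both arrays. In the authors' deposited table the means were -0.69 and -1.24, and both were called.

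**Figure D5:**
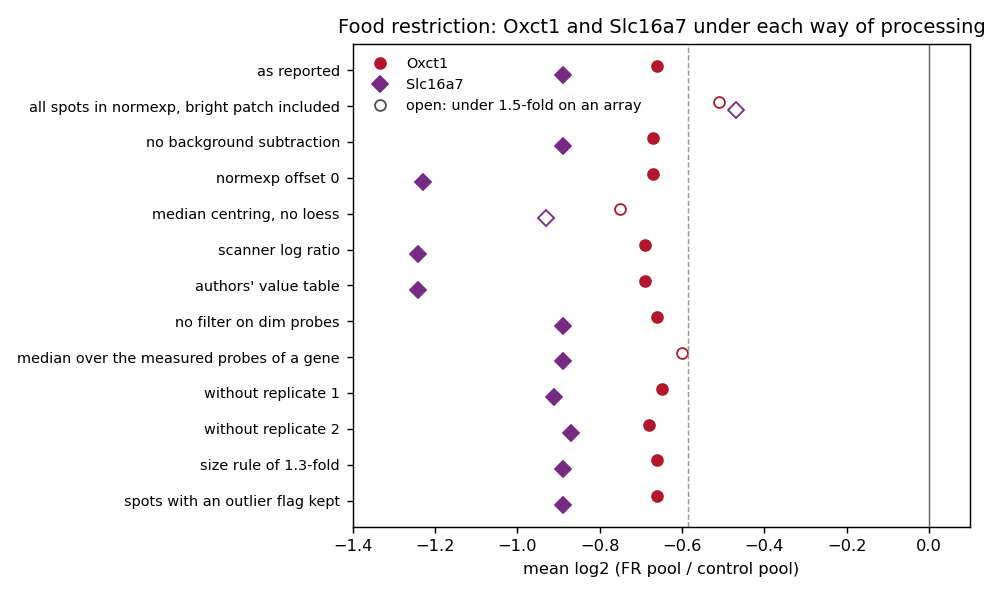
Mean log2 ratio of the FR pool over its control pool (horizontal axis) for Oxct1 (circles) and Slc16a7 (diamonds) under each way of processing (vertical axis); filled symbols were at least 1.5-fold lower on both arrays, open ones were not, and the dashed line is 1.5-fold. Every mean lies below 0, from -0.51 to -0.75 for Oxct1 and from -0.47 to -1.24 for Slc16a7.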

How the data were processed

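Per the file headers, the deposited scanner files (Agilent Feature Extraction 9.5.3.1, also named in the submitters' processing notes) hold mean spot and median local background intensity per channel, uncorrected. They also hold the authors' log10 ratio of red over green, already background-subtracted and dye-normalised, and flags of 0 or 1 per spot. The authors' deposited value table states no unit. Set against the scanner ratios on spots well above background, the authors' values matched them to within 5.48e-06 as log2 of treated over control, so they are log2 ratios as deposited; how dim spots were treated in it is unknown. Probes of 60 bases were used, all arrays on 1 slide, with build mm9 coordinates.

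Each array held 43379 spots that were not controls, of which 71.4% to 85.3% were well above background in a channel. Spots whose local background was over 2 times the array median were left out (3 on FD array 1, 44 on FR array 2). The normexp correction (offset 50) was followed by loess within arrays (limma 3.58.1, R 4.3.3), with control spots at weight 0. Spots with an outlier flag (1682 to 3607 an array) were then dropped. Spots of a probe were averaged, dye-swapped ratios were turned, and a gene took the value of its brightest measured probe. Channel levels came after Aquantile scaling. Of 41174 probes, 26918 were named by sequence identifier, 5082 by current and 817 by older symbol (table of assembly GRCm38.p6), and 8357 kept the file's name. The size rule was tested on simulated data.

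A dye swap repeats the same pair of pools, so n = 1, no p-value was computed, and array number limits precision. All probes of the 5 genes are named. Of the other pathway genes, any called and the 2 of each role with the largest mean in each comparison are named, plus up to 5 nearest patterns per called gene; Slc16a6, Emb, Bsg, Ldha, Ldhb, Hcar1, Hcar2 and Fgf21 were named after their values were seen. Some genes that these rules take are not reported here. The members and lists were chosen with earlier results of these data known. In all, 15 alternatives were tried, 13 for the ratios and 2 for the channel levels (quantile scaling over the 8 channels and the scanner's processed signals).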

Additional observations from a re-analysis of the deposited data

How the results depend on the processing

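The count of ketone genes called was 0 in FD under all alternatives run. The FR count of 2 lower genes went to 0 with all spots in normexp and to 0 with median centring, and to 1 (Slc16a7) with the median over measured probes. Under the other alternatives it was 2. A gene called on both arrays also passes on either array alone and at 1.3-fold, so those settings could not lower the count. The authors' deposited table repeats the scanner log ratio and is no separate check. FD against FR went from 0 to 1 (Slc16a7 higher) with a normexp offset of 0 (0.78), with the scanner log ratio and the authors' deposited table (0.81 each) and with a 1.3-fold rule (0.53). Leaving out 1 array gave 0 to 1, the 1 being Slc16a7 (0.59) without array 1. With all spots in normexp, FD against FR was smaller, at 0.11 for Slc16a7 and 0.22 for Oxct1, and with median centring 0.59 and 0.62. From scanner processed signals, the FR pool was -1.24 from its control for Slc16a7, against -0.89. The mean FR ratio of Slc16a7 was -1.23 with a normexp offset of 0 and -0.89 with no background subtraction. The cause of these differences was not tested. With outlier-flagged spots kept, an alternative chosen after seeing the data, Bdh1 was 0.11 in FD and 0.24 in FR, opposite to the values without them. Over all genes, the 39 calls of FD were 21 with median centring (2 higher, 19 lower), 92 with offset 0, 141 with the scanner ratio or the authors' deposited table, 139 at 1.3-fold and 93 to 180 from single arrays. The 188 of FR were 13 with all spots in normexp, 37 with median centring (31 higher, 6 lower), 433, 604, 700 and 479 to 552 under the other settings in that order. The 57 of FD against FR were 28 with all spots in normexp, 66 with median centring (31 higher, 35 lower), 160, 259 (135 higher, 124 lower), 274 and 128 to 187. No paired analysis was possible because a dye swap repeats the same pair of pools and the results come from no test. Signal over background limits Slc16a7, which rests on 1 probe, and the outlier flags leave Acat1 without a dye-swap mean.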
